A study of Homo sapiens with 24 samples.

Results

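The 8 genes described here, HMGCS1, MVD, IDI1, FDFT1, SQLE, LSS, CYP51A1 and DHCR7, encode enzymes of cholesterol synthesis and were taken by gene name from the 58884 genes of the RNA-seq tables. They were chosen from measured values, namely their lower transcript levels in cells expressing a truncated SETD2, so the comparisons with that construct are descriptions and carry no test. HEK293T cells derive from human embryonic kidney and express the large T antigen, and SETD2 is the methyltransferase that places H3K36me3. The 10 libraries were 2 WT and 2 KO in the first table, and 2 KO, 2 SETD2 FL and 2 SETD2 C in the second. KO cells are HEK293T derivatives in which both alleles of endogenous SETD2 are disrupted, and every library of the second table comes from them. SETD2 FL and SETD2 C libraries are from KO cells transiently transfected with the full-length protein or with residues 1404 to 2564, driven by a CMV promoter, 72 h after transfection. The labels call the KO and WT libraries untreated, so transfection and construct cannot be told apart against KO, whereas SETD2 C and SETD2 FL were both transfected. The labels do not say whether the libraries of a group came from separate cultures, so p-values may measure only the spread between 2 libraries, which may be technical.

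Cholesterol is built from acetyl-CoA through mevalonate, isoprenoid units, squalene and lanosterol by a series of enzymes. Most of these enzymes are transcribed under the SREBP-2 factor, encoded by SREBF2, which is released from the endoplasmic reticulum when sterols are scarce and acts at promoters together with NF-Y and Sp1. The INSIG proteins hold SREBP in the endoplasmic reticulum when sterols are plentiful. HEK293T cells make their own sterols as well as taking them up from serum.

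The measure was TPM, a transcript's abundance corrected for its length and given relative to the sum over a library. Between 24306 and 27104 genes were detected above 0 TPM in a library, replicates correlated across genes with r from 0.993 to 0.995, and sequencing depth is unknown. The SETD2 transcript was at 12.6 and 14.8 TPM in the libraries labelled WT and at 16.2 and 16.3 in those labelled KO of the same table, so it was not lower in KO, and the direction between them is that of the labels. In the other table it was at 12 and 12.2 TPM in KO. It was at 439 and 422 under SETD2 FL and at 1329 and 1264 under SETD2 C. TPM is corrected for transcript length, and SETD2 C is only part of the protein. The values of the constructs may therefore not be like measures. The paper reports no significant difference between their mRNA levels in its RNA-seq, and markedly higher protein expression of SETD2 C. Truncation, transcript level and protein level of the construct cannot be told apart here. The epithelial and mesenchymal genes that HEK293T cells express were present, with VIM at 444 to 926 TPM and KRT18 at 59.7 to 97.2, while the renal factors PAX2 and LHX1 were low, at 0.99 to 2.21 and 0.62 to 1.49. Of 8 markers of other cell types, 5 to 7 had a TPM above 0 in each library, and the blood markers PTPRC, CD3E and HBB did not exceed 0.08 TPM in any. The summed TPM of these 8 was 8.18 to 8.34 in KO of the second table, 9.07 to 10.3 with SETD2 FL and 13.9 to 15.6 with SETD2 C, most of it from COL1A1. The keratin KRT8 was at 28.2 to 32.9 TPM in KO and SETD2 FL and at 97.9 to 98.1 with SETD2 C. The part of these marker differences in the results was not tested. Mitochondrially encoded genes took 6.23% to 7.04% of TPM in KO, 7.79% to 11.0% with SETD2 FL and 2.93% to 3.37% with SETD2 C.

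The promoters are shown because the factors that act on this pathway bind short motifs there. RefSeq promoter windows on GRCh38.p14 were matched for 6 of the 8 members; FDFT1 and SQLE were not matched. The 250 bases before the canonical start of 4 members are printed on the minus strand, 5′ to 3′, with capitals marking CCAAT (the NF-Y box) or GGGCGG (the Sp1 box) on either strand. HMGCS1 (chr5:43313413-43313662) and DHCR7 (chr11:71448394-71448643) are shown as members that were over 2-fold lower with SETD2 C, MVD (chr16:88663092-88663341) and CYP51A1 (chr7:92134478-92134727) as the members with the smallest differences. The windows of DHCR7 and CYP51A1 lie wholly within the annotated gene and those of HMGCS1 and MVD in part, since the gene as annotated begins upstream of its canonical start.
HMGCS1: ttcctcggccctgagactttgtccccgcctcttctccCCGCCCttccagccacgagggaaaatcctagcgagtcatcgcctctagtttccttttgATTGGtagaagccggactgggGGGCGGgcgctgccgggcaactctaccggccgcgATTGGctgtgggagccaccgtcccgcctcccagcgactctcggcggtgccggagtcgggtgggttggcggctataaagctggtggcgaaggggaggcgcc
DHCR7: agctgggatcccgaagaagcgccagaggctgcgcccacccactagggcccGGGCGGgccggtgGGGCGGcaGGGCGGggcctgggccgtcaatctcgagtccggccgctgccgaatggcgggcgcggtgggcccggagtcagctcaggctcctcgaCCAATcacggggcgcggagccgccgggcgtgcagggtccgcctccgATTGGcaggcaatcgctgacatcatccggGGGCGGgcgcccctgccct
MVD: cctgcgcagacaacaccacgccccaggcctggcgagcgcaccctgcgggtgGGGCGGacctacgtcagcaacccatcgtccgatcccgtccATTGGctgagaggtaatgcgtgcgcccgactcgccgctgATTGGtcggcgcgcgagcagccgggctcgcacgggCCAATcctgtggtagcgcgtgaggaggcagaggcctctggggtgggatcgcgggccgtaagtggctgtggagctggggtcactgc
CYP51A1: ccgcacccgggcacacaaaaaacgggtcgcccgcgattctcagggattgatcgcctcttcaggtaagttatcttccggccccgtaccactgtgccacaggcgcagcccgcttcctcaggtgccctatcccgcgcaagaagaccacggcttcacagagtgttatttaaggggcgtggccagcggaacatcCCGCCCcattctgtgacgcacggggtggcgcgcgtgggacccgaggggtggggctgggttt

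Both strands of the whole windows, 250 bases before to 50 after the start, were searched. CCAAT was found in 5 of the 6 members, all but CYP51A1, with 10 matches in all, whereas 34.6% of 35116 windows hold it. Its first base lay at -155 and -100 from the start in HMGCS1, at -159, -120 and -85 in MVD, and at -94 and -48 in DHCR7. GGGCGG was found in 6 of 6 members and in 45.0% of all windows. It was not particular to the members. It was in 8 of 9 windows of other pathway enzymes, 7 of 8 of mevalonate branch genes and 7 of 7 of sterol uptake and transport genes. It was also in 5 of 5 of efflux and LXR genes, 3 of 3 of esterification and oxysterol genes and 5 of 8 of SREBP regulators. The member windows were GC-rich, from 63.7% (CYP51A1) to 75.0% (DHCR7). The sterol element TCACNCCAC was found in 0 of 6 members and 1.13% of windows. The related CACCCCAC, the same element with N as C and without its first T, was in 0 of 6 and 2.79%. The E-box CACGTG was found in LSS alone and in 7.26% of windows. Only exact letters within these windows were matched, so sterol elements of another spelling or position would be missed. Among the other enzymes of the pathway, 8 of 9 windows held CCAAT. It was in 5 of 8 windows of mevalonate branch genes and 2 of 7 of sterol uptake and transport genes. Efflux and LXR genes held it in 2 of 5, esterification and oxysterol genes in 1 of 3 and SREBP regulators in 2 of 8. SREBF2 itself held TCACNCCAC, with its first base at -133.

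On GRCh38, HMGCS1 (ENSG00000112972) lies on chromosome 5 from 43287470 to 43313512, MVD (ENSG00000167508) on chromosome 16 from 88651935 to 88663161, and IDI1 (ENSG00000067064) on chromosome 10 from 1039152 to 1049119. FDFT1 (ENSG00000079459) lies on chromosome 8 from 11795573 to 11839395 and SQLE (ENSG00000104549) on chromosome 8 from 124998497 to 125022283, and these are the members on the plus strand. LSS (ENSG00000160285) lies on chromosome 21 from 46188141 to 46228824, CYP51A1 (ENSG00000001630) on chromosome 7 from 92084987 to 92134803, and DHCR7 (ENSG00000172893) on chromosome 11 from 71428193 to 71452868. All 8 are protein-coding, and their canonical transcripts hold 5 exons (IDI1) to 22 exons (LSS). TPM was given per gene over all its transcripts.

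The 8 transcripts together were less abundant with SETD2 C than in either other group of the second table. Their summed TPM was 669 ± 31.4 (SD, n = 2) in KO, 660 ± 11.2 (n = 2) with SETD2 FL and 316 ± 2.19 (n = 2) with SETD2 C. In the first table the sum was 571 ± 82.8 (n = 2) in WT and 584 ± 17.3 (n = 2) in KO. SQLE, squalene epoxidase, was the most abundant member in 9 of 10 libraries and LSS, lanosterol synthase, the least abundant in all 10. The exception was the first SETD2 C library, where FDFT1 at 67.6 TPM stood above SQLE at 65.9. In bulk RNA, fewer cells of a type and less RNA per cell cannot be told apart, nor can a part of the cells responding strongly and all of them weakly.

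**Figure D1:**
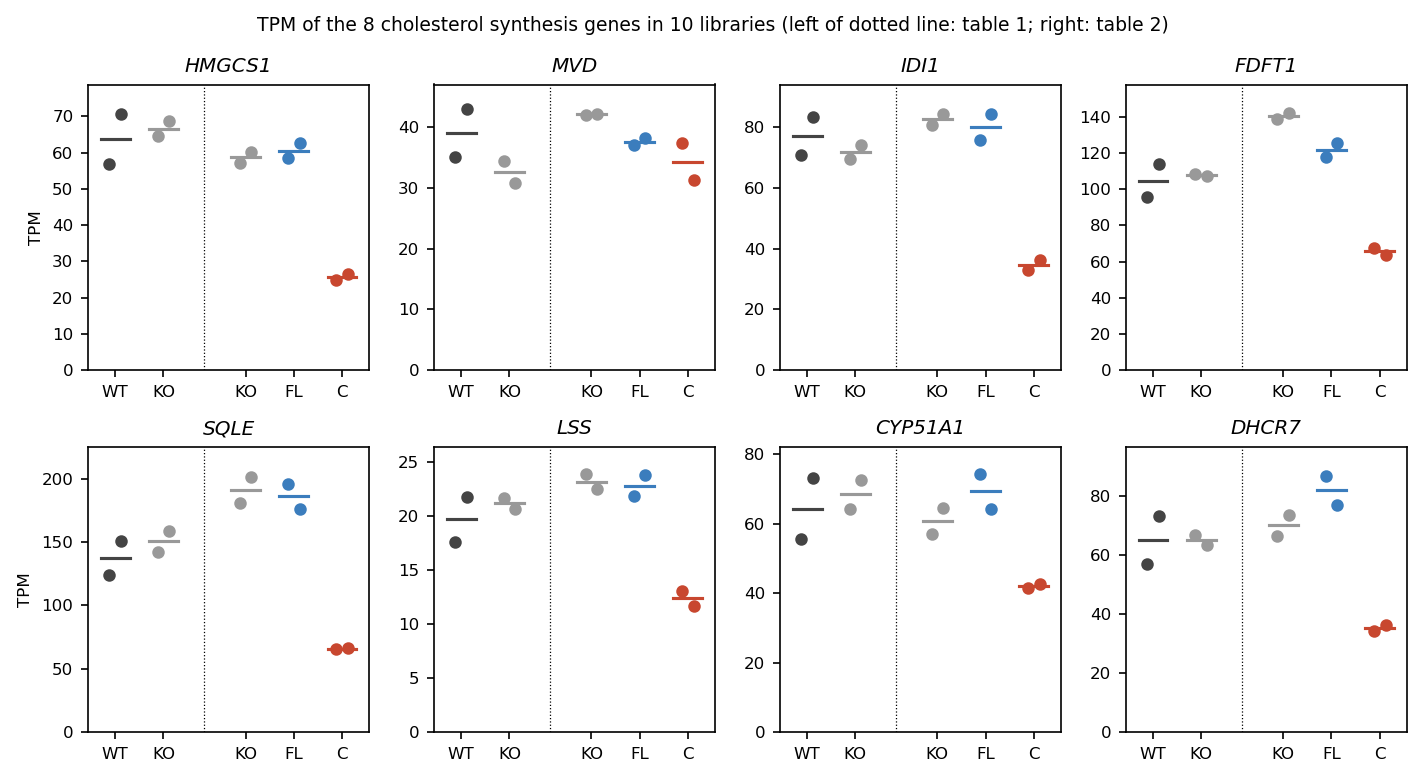
TPM of each of the 8 genes in every library, with WT and KO of the first table left of the dotted line and KO, SETD2 FL (FL) and SETD2 C (C) of the second right of it; points are libraries and bars are means of 2. The SETD2 C points lie below all KO and SETD2 FL points in 7 panels, and in MVD the first SETD2 C library, at 37.4 TPM, lies between the SETD2 FL libraries.

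The early, mevalonate-making and isoprenoid steps were represented by HMGCS1, MVD and IDI1. HMGCS1, the cytosolic synthase that makes HMG-CoA, was at 57.1 and 60.2 TPM in KO, at 58.5 and 62.7 under SETD2 FL and at 25.0 and 26.6 under SETD2 C. IDI1, which converts isopentenyl to dimethylallyl diphosphate, was at 80.8 and 84.5 TPM in KO, at 75.8 and 84.4 under SETD2 FL and at 32.9 and 36.2 under SETD2 C. For both genes the SETD2 C libraries were close to each other and far below the other 4, which overlapped. MVD, which makes isopentenyl diphosphate by decarboxylation, was at 42.1 and 42.2 TPM in KO, at 37.1 and 38.2 under SETD2 FL and at 37.4 and 31.4 under SETD2 C. The 2 SETD2 C libraries differed more from each other in MVD than the libraries of either other group did. On scaled values, TPM divided by each library's median ratio, MVD was at 35.1 and 29.4 with SETD2 C and at 38.7 and 38.4 with SETD2 FL, without overlap.

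The squalene and lanosterol steps were represented by FDFT1, SQLE and LSS. FDFT1, squalene synthase, the first enzyme committed to sterols, was at 139 and 142 TPM in KO, at 118 and 125 under SETD2 FL and at 67.6 and 63.6 under SETD2 C. SQLE, which opens the oxygen-dependent part of the pathway, was at 181 and 202 TPM in KO, at 195 and 176 under SETD2 FL and at 65.9 and 66.1 under SETD2 C. Both were lower in each SETD2 C library than in any other library of the table. LSS, which closes squalene epoxide to lanosterol, was at 23.9 and 22.5 TPM in KO, at 21.9 and 23.8 under SETD2 FL and at 13.1 and 11.7 under SETD2 C. The KO and SETD2 FL libraries overlapped in SQLE and LSS, while in FDFT1 both SETD2 FL libraries were below both KO libraries.

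The conversion of lanosterol was represented by CYP51A1 and DHCR7. CYP51A1, the lanosterol 14-alpha-demethylase, was at 57.0 and 64.5 TPM in KO, at 74.4 and 64.2 under SETD2 FL and at 41.6 and 42.5 under SETD2 C. DHCR7, the reductase that makes cholesterol from 7-dehydrocholesterol, was at 66.5 and 73.6 TPM in KO, at 86.9 and 76.9 under SETD2 FL and at 34.3 and 36.3 under SETD2 C. In both, the 2 SETD2 C libraries lay within a few TPM of each other, below every other library, and in DHCR7 both SETD2 FL libraries were above both KO libraries.

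Fold changes were taken on log2(scaled TPM + 0.5). In SETD2 C minus KO, SQLE showed the largest difference of the 8, 3.19-fold lower (log2 fold change -1.67, SE 0.08), followed by IDI1 at 2.63-fold, HMGCS1 at 2.49-fold, FDFT1 at 2.36-fold, DHCR7 at 2.18-fold and LSS at 2.03-fold lower. CYP51A1 was 1.59-fold lower (-0.67, SE 0.10) and MVD 1.36-fold lower (-0.44, SE 0.08). In this order, neighbours were further apart than 2 standard errors of their gap only between SQLE and IDI1 (0.28) and between LSS and CYP51A1 (0.35). Here and below, that standard error took the genes as independent, although they were measured in the same libraries. It is therefore only a rough scale and no test of the order. The scaled values of SETD2 C and KO did not overlap in 8 of 8 members, as in 30.8% of all 15933 genes tested with SETD2 C the lower. A fold change of at least 2 with an adjusted p of at most 0.05, the rule used for calls, was met by 6 of 8, against 0.314% of all genes called lower and 3.75% called higher. That was 50 lower and 597 higher, or 130 and 342 under quantile normalization. The adjusted p alone was met by 8 of 8, against 15.1% of all genes lower and 21.1% higher. Because the same contrast chose the members, nothing is read from these counts. The median log2 fold change was -1.18 over the members and 0.05 over all genes, and -1.09 over the members after mitochondrially encoded genes and SETD2 had been removed and TPM brought back to its sum.

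SETD2 C minus SETD2 FL compared KO cells transfected with either construct, and gave a similar size of difference in most members. SQLE was 3.06-fold lower with SETD2 C (-1.61, SE 0.08), HMGCS1 2.54-fold, IDI1 and DHCR7 each 2.51-fold, FDFT1 2.02-fold, LSS 1.97-fold and CYP51A1 1.78-fold lower. MVD was at the other end, 1.20-fold lower (-0.26, SE 0.08). Neighbours were further apart than 2 standard errors between SQLE and HMGCS1 (0.27), DHCR7 and FDFT1 (0.32), and CYP51A1 and MVD (0.57). The scaled values did not overlap in 8 of 8 members, as in 32.0% of all genes with SETD2 C the lower, and 5 of 8 were called lower, against 0.421% of all genes lower and 3.36% higher. The adjusted p alone was met by 8 of 8 and by 16.8% of all genes, lower. The median was -1.17 over the members and 0.04 over all genes. Both comparisons use the same SETD2 C libraries and are not independent. The members were chosen on SETD2 C contrasts, so nothing is read from the counts of this comparison either. The value of MVD rested on single SETD2 C libraries, at -0.39 without the first and -0.13 without the second.

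**Figure D2:**
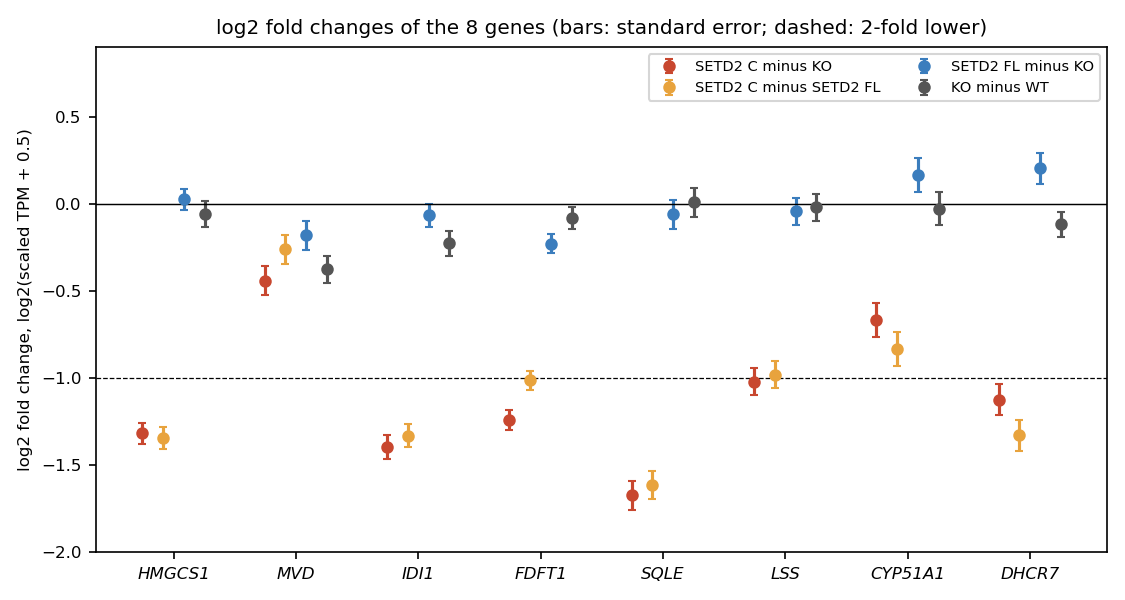
Log2 fold changes of the 8 genes in the 4 comparisons, on log2(scaled TPM + 0.5), with bars of 1 standard error and a dashed line at a 2-fold lower level. The SETD2 C comparisons run from -1.67 (SQLE) to -0.26 (MVD), and those of SETD2 FL minus KO and KO minus WT from -0.38 (MVD) to 0.20 (DHCR7).

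The members' shares of their own summed TPM differed between the groups. SQLE took 28% to 29.2% of the sum in KO, 27.1% to 29.3% with SETD2 FL and 20.7% to 21.0% with SETD2 C. MVD took 6.10% to 6.5% in KO, 5.55% to 5.86% with SETD2 FL and 9.98% to 11.8% with SETD2 C, and CYP51A1 took 8.81% to 9.33%, 9.85% to 11.1% and 13.1% to 13.5%. SQLE thus made up a smaller part of the 8, and MVD and CYP51A1 a larger part, in the SETD2 C libraries. FDFT1 took 20.6% to 21.4% in KO, 17.6% to 19.2% with SETD2 FL and 20.2% to 21.3% with SETD2 C. Over the 10 libraries, with log2 values centred within each table, each member correlated with the members' mean at r from 0.981 to 0.995 except CYP51A1 (0.946) and MVD (0.714). These are descriptions, since each mean includes the member and the libraries share tables and groups.

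In SETD2 FL minus KO, which asks whether the full-length protein moved these genes, no member passed the test. The log2 fold changes ran from -0.23 for FDFT1 to 0.20 for DHCR7, with 5 negative and 3 positive and a median of -0.05, where the median of all genes was 0.01. FDFT1 (SE 0.05, 95% interval -0.36 to -0.10) had an adjusted p of 0.15 and DHCR7 (SE 0.09, interval -0.002 to 0.41) one of 0.317 in limma with Benjamini-Hochberg adjustment over all genes. SQLE differed by -0.06 (interval -0.25 to 0.13), HMGCS1 by 0.03 (-0.12 to 0.17), LSS by -0.04 (-0.22 to 0.14) and IDI1 by -0.07 (-0.22 to 0.09). The intervals of these 4 do not reach a 1.5-fold difference in either direction, which is less than any of these 4 differed with SETD2 C. Scaled values did not overlap in 2 members with SETD2 FL lower, FDFT1 and MVD, and in DHCR7 with SETD2 FL higher, as in 23.4% and 24.8% of all genes. At the adjusted p of 0.05, 0 of 8 members passed in limma, as did 0.0314% of all genes lower and 0.176% higher, while 15.9% of all genes had an unadjusted p under 0.05.

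KO minus WT compared the same genes between KO and WT cells, in other libraries. Loss of SETD2 and any other difference between these cells cannot be told apart. SQLE was at 124 and 151 TPM in WT and 142 and 159 in KO, and HMGCS1 at 56.8 and 70.7 in WT and 64.7 and 68.7 in KO. The groups overlapped in both genes, and the second WT library was higher than the first in all 8. MVD was at 35.1 and 43.0 TPM in WT and 34.5 and 30.9 in KO, with both KO libraries below both WT libraries. It had the largest difference of the 8, a log2 fold change of -0.38 (SE 0.08, 95% interval -0.56 to -0.19), and missed the test with an adjusted p of 0.0512 in limma. IDI1 followed at -0.23 (SE 0.07, interval -0.40 to -0.05, adjusted p = 0.125 in limma), at 70.7 and 83.3 TPM in WT and 69.4 and 74.1 in KO. FDFT1 (-0.08), DHCR7 (-0.12), HMGCS1 (-0.06), CYP51A1 (-0.03), LSS (-0.02) and SQLE (0.01) had adjusted p-values of 0.364 to 0.957. In all, 0 of 8 members passed in limma, against 3.17% of 14746 genes lower and 1.32% higher, with 24.9% of all genes at an unadjusted p under 0.05. Scaled values did not overlap in 4 of 8, MVD, IDI1, FDFT1 and DHCR7, all with KO lower, as in 29.4% of all genes. The mitochondrially encoded share was 23.2% and 14.1% in WT and 12% and 12.4% in KO, and without scaling the members' median was 0.06 instead of -0.07. MVD passed the test (adjusted p = 0.0447 in limma) when the filter was raised to 1 TPM throughout.

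**Figure D3:**
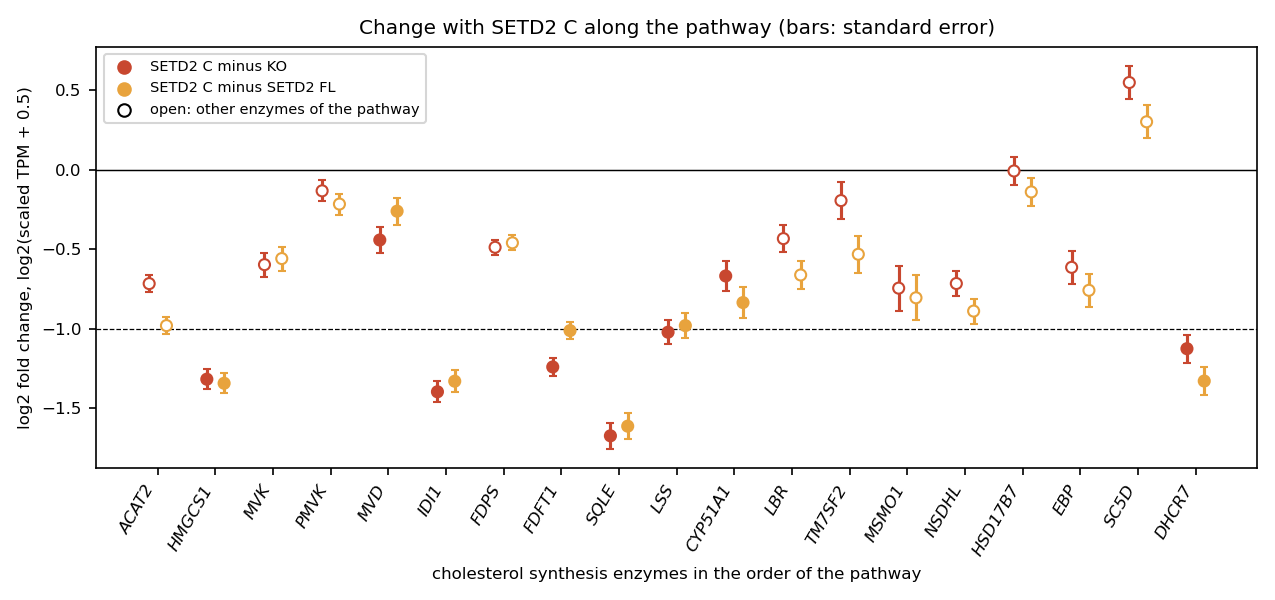
Log2 fold changes of 19 cholesterol synthesis enzymes in the order of the pathway, for SETD2 C minus KO and SETD2 C minus SETD2 FL, with bars of 1 standard error; filled points are the 8 genes, open points 11 other enzymes. The 8 were chosen on SETD2 C contrasts, so their place below 0 was set by the choice. Of the 11 other enzymes, 10 lie below 0 in each comparison, and SC5D lies above 0 in both (0.55 and 0.30). The medians of all genes were 0.05 and 0.04.

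A further 11 enzymes of the pathway were also mostly lower with SETD2 C. In SETD2 C minus KO, 7 of the 11 fell and 1 rose at the adjusted p alone in limma, against 15.1% of all genes lower and 21.1% higher, and 0 were called at 2-fold. Their median was -0.49, which is not set against that of the 8, since those were chosen on this contrast. The largest decrease was in MSMO1, the sterol C4 methyl oxidase (log2 fold change -0.74, adjusted p = 0.0058 in limma). SC5D, the sterol desaturase that makes 7-dehydrocholesterol, the substrate of DHCR7, rose by 0.55 (adjusted p = 0.0056 in limma). SC5D was at 86.0 and 99.6 TPM in KO, at 120 and 103 under SETD2 FL and at 146 and 154 under SETD2 C, so it was highest where DHCR7 was lowest. In SETD2 C minus SETD2 FL, 9 of 11 fell and 0 rose at the adjusted p alone in limma, against 16.8% of all genes lower and 21.4% higher, with SC5D at 0.30 (adjusted p = 0.0504 in limma). In SETD2 FL minus KO 0 of 11 passed in limma. In KO minus WT 1 of 11 passed in limma, against 3.17% of all genes lower and 1.32% higher. It was TM7SF2, a sterol reductase chosen here after its values were seen. TM7SF2 was at 13.2 and 11.7 TPM in WT and 7.52 and 6.87 in KO (-0.87, adjusted p = 0.027 in limma).

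**Figure D4:**
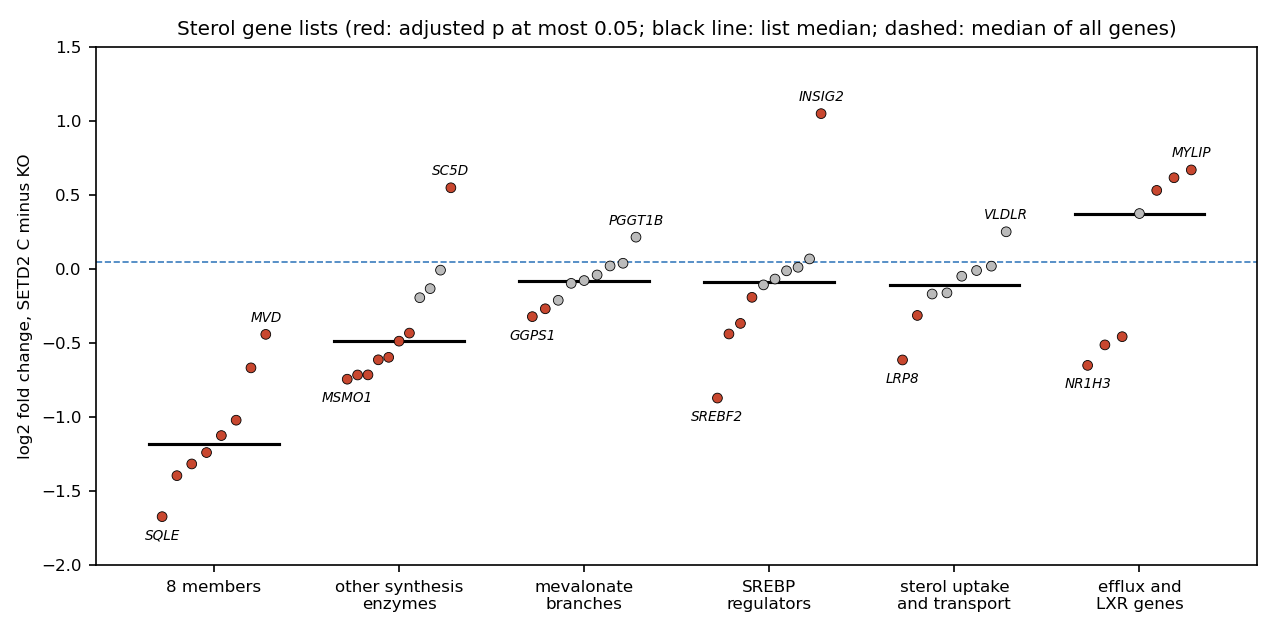
Log2 fold changes in SETD2 C minus KO of the 8 genes and of 5 other lists of sterol genes; each point is a gene, red where the adjusted p was at most 0.05, black lines are list medians and the dashed line is the median of all genes (0.05). The 8 genes, chosen on this contrast, run from -1.67 (SQLE) to -0.44 (MVD), and the genes of the other lists from -0.87 (SREBF2) to 1.05 (INSIG2).

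Of 10 regulators of SREBP, 4 fell and 1 rose in SETD2 C minus KO at the adjusted p alone, which 15.1% of all genes passed as lower and 21.1% as higher. SREBF2 was at 58.6 and 59.6 TPM in KO, at 57.2 and 59.7 under SETD2 FL and at 35.9 and 35.2 under SETD2 C. Its log2 fold change against KO was -0.87. INSIG2 was at 22.4 and 21.9 TPM in KO, 20.7 and 19.6 under SETD2 FL and 50 and 52.9 under SETD2 C (1.05). INSIG1 was at 210 and 239 TPM in KO, 280 and 255 under SETD2 FL and 189 and 196 under SETD2 C. The more abundant INSIG transcript was thus lowest, not highest, with SETD2 C. Of 9 genes of the branches that use mevalonate pathway intermediates for other products, 2 fell, a share near the 15.1% of all genes, with the lowest value in GGPS1, which makes geranylgeranyl diphosphate (-0.32), and the highest in PGGT1B, a subunit of a prenyl transferase (0.22, adjusted p = 0.22 in limma), and the median was -0.08. Of 8 genes of sterol uptake and transport 2 fell, also near that share, led by LRP8, a lipoprotein receptor (-0.61, adjusted p = 0.0022 in limma), and the median was -0.11. VLDLR, another lipoprotein receptor, was the highest of them at 0.25 (adjusted p = 0.131 in limma). It was the 1 of these 8 that passed in KO minus WT (-0.79, adjusted p = 0.0239 in limma), beside 3.17% of all genes lower and 1.32% higher. Its level there was low, at 3.9 and 4.13 TPM in WT and 2.26 and 2.37 in KO.

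Of 7 genes of sterol efflux and of the LXR receptors, which respond to oxysterols, 3 rose and 3 fell in SETD2 C minus KO at the adjusted p alone, beside 21.1% and 15.1% of all genes. MYLIP, a ubiquitin ligase for lipoprotein receptors, was the highest (0.67, adjusted p = 0.0015 in limma), and NR1H3, which encodes LXR alpha, was the lowest (-0.65, adjusted p = 0.002 in limma). Of 6 genes of esterification and oxysterol synthesis only 2 passed the filter on low TPM, and 0 of these met the adjusted p alone in any of the 4 comparisons.

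Among the genes that are no members, those with a pattern most like the mean of the 8 were sought over the 10 libraries, with log2 values centred within each table and a span of at least 1. High correlations were found for MMAB, a mitochondrial cobalamin enzyme (r = 0.985), SLC39A4, a zinc importer (r = 0.983), CHMP3, a subunit of the ESCRT machinery (r = 0.982), and EEF2KMT, a methyltransferase for elongation factor 2 (r = 0.981). MMAB was at 54.4 and 56.1 TPM in KO, at 54.6 and 59.1 under SETD2 FL and at 29.8 and 31.2 under SETD2 C. These libraries share tables and groups, so the correlations describe mainly the step between SETD2 C and the rest.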

How the data were processed

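Per the labels, total RNA from HEK293T cells was ribodepleted and polyA-enriched. The authors aligned reads with STAR 2.6.1c, estimated expression with RSEM 1.3.0 on GRCh38 and deposited TPM values per gene, in 2 separate tables without normalization between libraries. Because TPM is relative to the library's sum, a rise in some genes lowers others, and counting error is unknown. The authors' count tests were not used here.

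Each library was divided by its median ratio to the gene-wise geometric means, taken over genes of lncRNA or protein-coding type (GENCODE 44) with TPM of at least 1 in every library. A gene was kept if 2 or more libraries reached 0.5 TPM. Tests used limma 3.58.1 under R 4.3.3 (eBayes with trend) on log2(scaled TPM + 0.5), within each table, with Benjamini-Hochberg adjustment over all genes tested. This scale understates changes of genes with low TPM. A call required a 2-fold or larger change together with an adjusted p of 0.05 or less. The procedure was tested on simulated data.

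The members and lists were chosen with earlier results of these data known. Besides the members, the genes named were those called in any comparison and the highest and lowest of each list in SETD2 C minus KO, and genes most correlated with the members' mean. TM7SF2 and INSIG1 met none of these rules and were named after their values were seen. Replicate numbers came from the labels. Alternatives were other pseudocounts, filters, scalings and spread estimates, all gene types, the adjusted p alone, a replicate block, and each library left out. Some genes are not reported here, and ChIP-seq samples were not analysed here.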

Additional observations from a re-analysis of the deposited data

How the results depend on the processing

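In the SETD2 C comparisons each of the 8 genes was lower under all 14 other settings, and the members' median stayed between -1.24 and -1.04 against KO and between -1.18 and -1.04 against SETD2 FL. Without scaling the medians were -1.04 in both, and after removal of the mitochondrially encoded genes and SETD2 that against KO was -1.09. The members called lower numbered 4 to 6 of 8 in both comparisons and 8 at the adjusted p alone. With each library left out they numbered 5 to 6 against KO and 4 to 6 against SETD2 FL. LSS against KO and FDFT1 against SETD2 FL lay close to a 2-fold difference. In SETD2 FL minus KO and KO minus WT, 0 members were called at 2-fold under any setting. Depth, and with it counting error, is unknown, and 2 libraries a group limit all tests.

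The differences of the members in the other comparisons were small enough to change direction, and the cause was not tested. In KO minus WT without scaling, HMGCS1 was at 0.072, FDFT1 at 0.049, LSS at 0.11, CYP51A1 at 0.10 and DHCR7 at 0.011, with a members' median of 0.060. SQLE was at -0.032 under quantile normalization and ran from -0.080 to 0.10 with each library left out, LSS from -0.053 to 0.012 and CYP51A1 from -0.13 to 0.074. In SETD2 FL minus KO, SQLE (0.0028) and LSS (0.021) turned positive once SETD2 and mitochondrially encoded genes were removed. With each library left out HMGCS1 ran from -0.020, without the first KO library, to 0.070, and SQLE from -0.16 to 0.042, without the second SETD2 FL library.

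Counts over all genes moved with the pseudocount and the filter. In SETD2 C minus KO, 597 genes were higher and 50 lower. A pseudocount of 0.1 gave 987 and 93, a pseudocount of 1 gave 335 higher, the filter at 1 TPM in all libraries 267 higher, quantile normalization 342 and 130, all gene types 79 lower, and the adjusted p alone 3359 and 2405. With each library left out 466 to 640 were higher and 52 to 77 lower, with 77 lower without the first SETD2 C library. In SETD2 C minus SETD2 FL, with 536 higher and 67 lower, the same settings gave 853 and 104 (pseudocount 0.1), 317 higher (pseudocount 1), 263 higher (filter at 1 TPM), 336 and 126 (quantile) and 3411 and 2676 (adjusted p alone).

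In SETD2 FL minus KO, with 12 higher and 1 lower, 0 were lower at a pseudocount of 0.1, with no filter and without the trend, 4 without scaling and in a fit of these groups alone. Higher genes numbered 6 at a pseudocount of 1, 5 with the filter at 1 TPM and with all gene types, and 3 without a filter. With each library left out 2 to 6 were higher and 0 lower, and the adjusted p alone gave 28 and 5. In KO minus WT, with 50 higher and 150 lower, a pseudocount of 1 gave 32 and 96, the filter at 1 TPM 23 and 60, no filter 15 and 58, and the adjusted p alone 194 and 467. With each library left out 22 to 65 were higher, fewest without the second KO library, and 84 to 149 lower, fewest without the first WT library. Single genes outside the 8 were rerun only in the SETD2 C comparisons, where they met the adjusted p. Of their values under the other settings, 599 kept significance, 73 lost it and 0 reversed. They were not rerun in SETD2 FL minus KO or KO minus WT.

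With the replicate block in KO minus WT, 55 genes were higher and 159 lower, and MVD, at -0.38 in that fit too, had an adjusted p of 0.0388 in limma. Across 14746 genes, the deviations of the first WT and first KO library from their group means correlated only weakly (r = 0.147). With 2 libraries a group, the second pair gives the same value. The labels do not say that a number marks a shared day, so same-numbered libraries share only a number. No paired analysis was possible in the second table because its groups share fewer than 2 numbers.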
